A study of Mus musculus with 17 samples.

Results

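The comparison set 2 libraries of small-intestinal epithelial cells taken on day of life 24 against 3 libraries taken on day of life 14, all from Igha -/+ pups nursed by a C57BL/6 dam (the B6 dam). These are 5 of the 17 libraries of the series, chosen by the dam and the age in the sample titles. The other 12 came from the same dam group on day 42 (3 libraries) or from pups nursed by a dam without IgA (the IgA-null dam) on days 14, 24 and 42. Every pup, whatever its dam, was of strain C57BL/6 and carried 1 working Igha allele from a cross of C57BL/6 and IgA -/- parents, so the pups themselves could make IgA. EpCAM+ CD45- Ter119- cells were sorted from digested small intestine, frozen, and made into RNA libraries together. Litters and the segment of small intestine taken are not given in the labels, so p-values measure only the spread between libraries of a group. That spread was pooled over all 17 libraries in 6 groups of dam and age, not taken from these 5 alone. The dates in the sample descriptions differ between the 2 ages, so the date and the age cannot be told apart.

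Days 14 and 24 lie on either side of weaning in the mouse. Before it, villus enterocytes take up milk proteins whole and digest them in large lysosomes, carry maternal antibody across the cell, digest lactose and burn milk fat. After it, the brush border digests solid food and plant sugars, and the epithelium meets a denser and more varied microbiota, to which it answers with antimicrobial lectins and antigen presentation. The transcription factor Prdm1 is known to hold the suckling program of enterocytes in place in mice.

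Values are TPM (transcript abundance per library, corrected for length) divided by a size factor per library, called scaled TPM below, and fold changes are on the log2(scaled TPM + 1) scale, on which changes of weakly expressed genes come out too small. The 12496 genes that reached a TPM of 1 in 2 or more of the 5 libraries were tested with limma, and a gene was called where its Benjamini-Hochberg adjusted p was under 0.05. Of these, 2111 genes (16.9%) were called, 1198 higher (9.59%) and 913 lower (7.31%) at day 24. The counts of every gene list below are to be read beside these shares of all tested genes. The ages did not overlap for 2097 of the 2111, so a lack of overlap adds little to a call. Genes that were not called could lack overlap too: all 40 tested nuclear respiratory chain genes did, and 18 of them were called. At least 2-fold changes numbered 397 higher and 272 lower. A gene low at 1 age could be tested only through the other age, and the list counts below leave out members low at both. The size factors matter for the balance: without them the median log2 fold change of all tested genes was -0.32 in place of 0.02, and the calls were 259 higher (2.07%) and 1144 lower (9.15%). With the mitochondrial genes and the 50 highest removed before scaling, they were 668 higher and 1285 lower. The share of calls that were higher was therefore 56.8% with size factors and 18.5% without. Fitted on the 5 libraries alone, 209 genes (1.67%) were called. Of the lists below, the suckling lysosome list then had 1 lower call, the neonatal enterocyte list 5 and the ketogenesis list 6. The cholesterol synthesis and goblet lists had 2 higher calls each, MHC class II 3 and microbe responsive genes 6. The enteroendocrine list had 9 and the tuft list 8. The MHC class I, interferon and sugar handling lists had 0 calls.

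Recovered depth was 18305346 and 17421256 reads at day 24, against 11310851 to 13636442 at day 14. The gene Gm23935 held 45.7 to 61.9% of TPM in the 5 libraries, and mitochondrial rRNA 20.4 to 31.9%. All genes besides Gm23935 and the mitochondrial ones held 15.9 to 19.7%. Epcam was at 371 to 468 TPM and the leukocyte gene Ptprc (CD45) at no more than 0.159 TPM in the 5 libraries, which are the markers of the sort. The 2 day 24 libraries stood apart in mature enterocyte genes. Alpi, an alkaline phosphatase of the villus brush border, was at 21.3 scaled TPM in replicate 1 and 318 in replicate 2. The villus gene Fabp1 was at 274 and 2267, and Apoa1, an apolipoprotein of the chylomicron, at 199 and 3235. Among day 14 libraries, replicate 3 was the lowest for these genes (57.0 scaled TPM of Alpi, against 122 and 145 in the others). Of the 1198 genes called higher, 195 (16.3%) were at least 2-fold higher in day 24 replicate 2 than in replicate 1, against 9.58% of all tested genes. Without day 24 replicate 1 the fit called 2249 genes higher and 1335 lower, and without day 24 replicate 2 it called 418 higher and 542 lower. In bulk RNA, fewer cells of a type and less RNA per cell cannot be told apart.

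The largest ranked rises were secreted C-type lectins that kill bacteria or keep them off the epithelium. Reg3b (chromosome 6, 78370657 to 78373466 of GRCm38/mm10, GENCODE M21) was at 1828 and 4621 scaled TPM at day 24, against 2.43, 3.02 and 1.63 at day 14, a log2 fold change of 9.78 ± 0.62 (SE, adjusted p = 3.53e-07). Reg3g (chromosome 6, 78466269 to 78468872) was at 465 and 1110, against 1.28, 0.694 and 0.827 (log2 fold change 8.55 ± 0.67, adjusted p = 2.41e-06). The groups were far apart for both, although reads of Reg3a, Reg3b and Reg3g, which are close copies, could have been shared in counting. Next among the rises, by log2 fold change, came Sis at 4.75, the ileal bile acid carrier Fabp6 at 4.69, the alkaline phosphatase Akp3 at 4.67, the uridine phosphorylase Upp1 at 4.11 and the fatty acid hydroxylase Cyp4f14 at 4.07. They were followed by the carbonic anhydrase Car4 at 4.05, the amine oxidase Maoa at 3.97, Cyp2b10 at 3.96, the secreted factor Fam3b at 3.87 and the villus tip keratin Krt20 at 3.79. Duox2 at 3.74, Cd74 at 3.68 and the membrane mucin Muc3 at 3.62 closed the ranked rises.

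How firmly these rises rest on both day 24 libraries differed. Car4 was at 12.0 and 20.5 scaled TPM at day 24, against 0, 0 and 0.0287 at day 14, and Duox2 at 14 and 17.3, against 0.235, 0.183 and 0.299. The ages were far apart for these 2 genes, and their day 24 libraries differed by less than the ages did. Akp3 was at 7.27 and 315, against 0.947, 0.489 and 1.77, and Cyp2b10 at 2.26 and 86.2, against 0.0570, 0.174 and 0.0267, so replicate 2 set most of the size of their rise. Without day 24 replicate 2 the adjusted p was 0.312 for Akp3, 0.387 for Cyp2b10, 0.0707 for Fabp6 and 0.0517 for Cyp4f14, and these calls were lost. Akp3 also lost its call without day 14 replicate 1 or 2, and Cyp2b10 without any 1 of the day 14 libraries. The other 11 ranked rises kept theirs without any 1 of the 5 libraries. Their size moved with the day 24 library left out: Krt20 ran from 2.58 without replicate 2 to 4.99 without replicate 1, and Muc3 from 2.44 to 4.804.

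The largest ranked falls included Meltf, Gpx3, Cym, Folr1 and Fcgrt of the neonatal enterocyte list described below. Lect2, Cyp2w1, Tdrp, Renbp and Mamdc4 were on none of the gene lists. Meltf (chromosome 16, 31878810 to 31899020), which encodes an iron-binding transferrin relative at the cell surface, was at 0 and 0.118 scaled TPM at day 24, against 138, 205 and 46.3 at day 14 (log2 fold change -6.71 ± 0.42, adjusted p = 3.14e-07). Cym, the milk-clotting protease chymosin, was at 0.0325 and 1.67, against 96.4, 85.7 and 79.9 (-5.73 ± 0.37, adjusted p = 3.53e-07). Folr1, a folate receptor, was at 0.0525 and 0.132, against 52.8, 67.9 and 20.0 (-5.29 ± 0.34, adjusted p = 3.53e-07). For these 3 genes every day 24 library lay far below every day 14 library. Other ranked falls, by log2 fold change, were the secreted peroxidase Gpx3 (-6.07), Mamdc4 (-5.67), an endosomal protein of the suckling rat gut, Renbp of sialic acid metabolism (-4.78), Fcgrt (-4.67), Lect2 (-4.22), the lysosomal protease Ctsl (-3.97), Cyp2w1 (-3.88), Tdrp (-3.81), the sialic acid lyase Npl (-3.69), the endolysosomal channel Mcoln3 (-3.67) and the endocytic adaptor Dab2 (-3.63). All 15 ranked falls were called without any 1 of the 5 libraries. Day 14 replicate 3 was the lowest of its group for each of them. Leaving out 1 library moved the fold change of Meltf between -7.31 and -6.24, and that of Cym between -6.45 and -5.04.

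**Figure D1:**
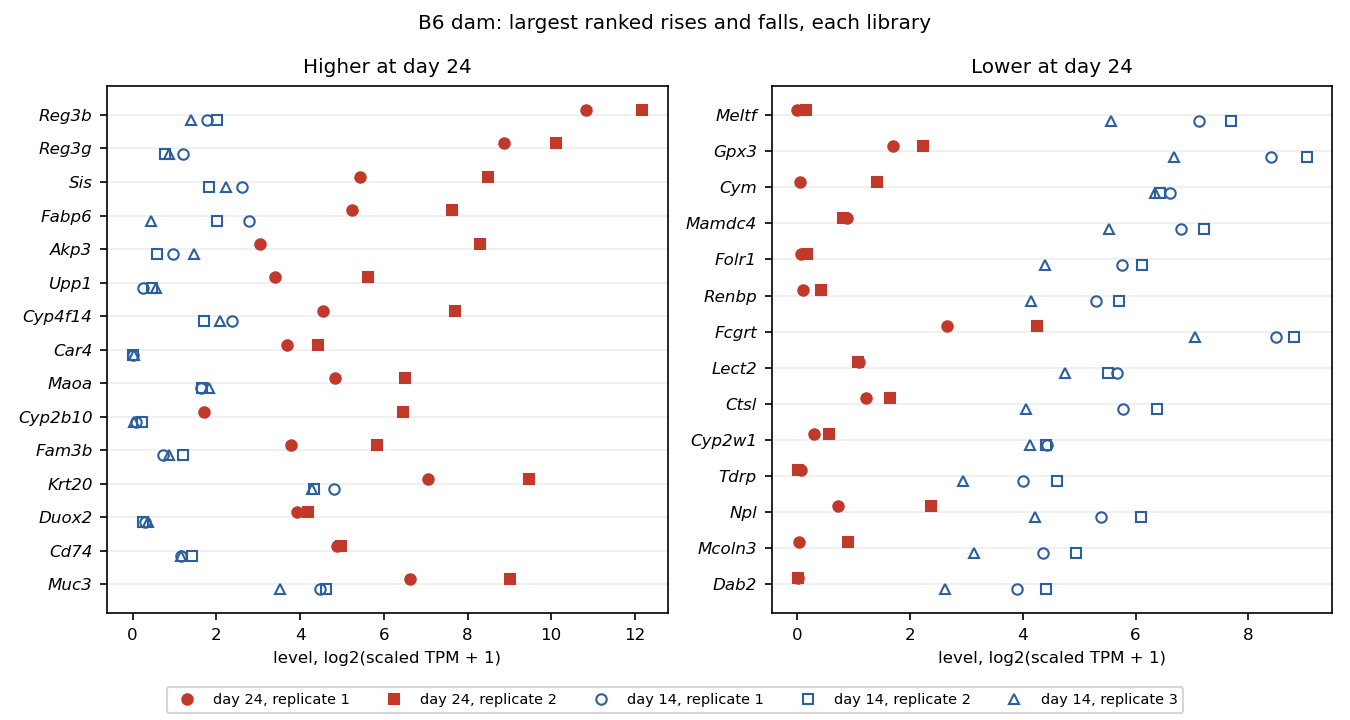
Level of the 15 largest ranked rises (left) and of 14 of the ranked falls (right) in every library, as log2(scaled TPM + 1) on the horizontal axis; filled red symbols are the 2 day 24 libraries and open blue symbols the 3 day 14 libraries of the B6 dam. Reg3b sits at 1828 and 4621 scaled TPM at day 24, against 1.63 to 3.02 at day 14, while several rises such as Akp3 are spread widely between the 2 day 24 libraries.

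Fcgrt (chromosome 7, 45092990 to 45103851) encodes the neonatal Fc receptor, which carries milk IgG across the enterocyte. It was at 5.30 and 18.0 scaled TPM at day 24, against 359, 447 and 132 at day 14 (log2 fold change -4.67 ± 0.51, adjusted p = 5.46e-05). Within each library, its ratio to the brush border gene Vil1 was 0.0442 and 0.0421 at day 24, against 2.93, 4.01 and 1.46 at day 14. That ratio needs no size factor and was chosen after the values were seen. Both day 24 libraries gave nearly the same ratio although they differed in Vil1 itself (120 and 428 scaled TPM).

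Of 31 tested genes of the suckling lysosome and milk protein uptake, 0 were higher and 18 lower, with a median log2 fold change of -1.17. Endocytosis genes behaved unequally. Dab2 was at 0.0109 and 0.0166 scaled TPM at day 24, against 14.0, 20.3 and 5.18 at day 14 (adjusted p = 2.49e-05). Dab2 thus passed the filter only through day 14. Cubn, the scavenger receptor cubilin, was at 0.646 and 12.7, against 17.4, 22.4 and 6.73 (log2 fold change -1.65 ± 0.92, adjusted p = 0.245), and its partner Amn at 4.58 and 24.0, against 26.4, 31.0 and 14.32 (adjusted p = 0.209). For Cubn and Amn the ages overlapped: day 24 replicate 2 was above day 14 replicate 3 but below day 14 replicates 1 and 2.

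Among lysosomal proteases, Ctsl was at 1.33 and 2.12 scaled TPM, against 53.6, 82.0 and 15.7 (adjusted p = 6.33e-05), and the asparaginyl protease Lgmn at 5.57 and 9.29, against 110.3, 191 and 35.5 (log2 fold change -3.48 ± 0.49, adjusted p = 3.80e-04). Other members called lower included the lysosomal genes Glb1, Gaa and Slc17a5: the β-galactosidase Glb1 had a log2 fold change of -1.74 ± 0.25, the acid glucosidase Gaa -1.202 ± 0.17 and the sialic acid exporter Slc17a5 -2.77 ± 0.41. Leaving out 1 library moved the list's count of falls between 13 (without day 24 replicate 1) and 21 (without day 14 replicate 3). The summed level of the list was 255 and 461 scaled TPM at day 24, against 1012, 1401 and 467 at day 14, so the second day 24 library and the third day 14 library were nearly level. Cathepsins Ctsb, Ctsd and Ctsz and the membrane proteins Lamp1 and Lamp2, which every cell uses, did not pass the test.

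Of 14 tested genes on the neonatal enterocyte list, 1 was higher and 10 lower (median -1.95). The 1 that was higher was Afp, the fetal albumin relative, at 3.13 and 4.03 scaled TPM, against 1.31, 1.26 and 0.636 (log2 fold change 1.16 ± 0.32, adjusted p = 0.0244), and its call was lost without day 24 replicate 2 or without day 14 replicate 3, and without size factors (adjusted p = 0.0993). The list's other genes that did not pass included Lct, described below. The list holds 23 genes, of which 14 passed the filter. Meltf and Folr1 were near 0 in both day 24 libraries and passed it only through day 14. Together with Gpx3, Cym and Fcgrt, they are also among the ranked falls, so this count is no separate support for them.

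Sucrase-isomaltase (Sis) splits sucrose and starch ends and is the textbook marker of weaned enterocytes. It was at 42.3 and 360.3 scaled TPM at day 24, against 5.09, 2.55 and 3.66 at day 14 (log2 fold change 4.75 ± 0.81, adjusted p = 0.00159). The groups did not overlap, and the log2 fold change was 3.22 without day 24 replicate 2 and 6.28 without replicate 1. Relative to Vil1 in the same library, Sis was at 0.353 and 0.842 at day 24, against 0.0416, 0.0228 and 0.0405 at day 14. Lactase (Lct), which splits milk sugar, was at 5.95 and 172 scaled TPM, against 141, 148 and 60.2 (log2 fold change -1.65 ± 1.204, adjusted p = 0.383). Day 24 replicate 1 was far below the day 14 libraries and replicate 2 above them, so no fall was shown on this scale. Relative to Vil1, Lct was at 0.0496 and 0.403, against 1.15, 1.33 and 0.666, without overlap. Vil1 itself was at 120 and 428 scaled TPM at day 24, against 122, 111 and 90.4 at day 14. In replicate 2 the lower ratio therefore came from a higher Vil1 and not from a lower Lct.

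The 250 bases before the annotated start of Sis (RefSeq, GRCm38.p6, chr3:72967864-72968113, minus strand) are shown because the CDX2 transcription factor is known to act on this promoter in mouse. The capitals mark the reverse complement of the CDX-type motif TTTATNG, found 52 to 46 bases before the start in a search of both strands.
Sis: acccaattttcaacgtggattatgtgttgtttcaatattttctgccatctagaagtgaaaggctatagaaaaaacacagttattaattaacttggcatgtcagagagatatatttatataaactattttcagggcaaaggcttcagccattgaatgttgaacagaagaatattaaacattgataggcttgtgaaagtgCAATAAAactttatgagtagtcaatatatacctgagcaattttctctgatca
That motif was held by 9.81% of all 32851 RefSeq promoter windows of this length, and by 1 of the 4 windows of the sugar genes called higher.

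Of 20 tested disaccharidase and sugar handling genes, 4 were higher and 4 lower (median 0.52). The maltase Mgam was at 77.0 and 352 scaled TPM, against 31.2, 30.1 and 30.8 (log2 fold change 2.39 ± 0.49, adjusted p = 0.00508). The sodium-glucose carrier Slc5a1 was at 48.6 and 481, against 49.0, 49.4 and 27.5 (adjusted p = 0.138), and the fructose carrier Slc2a5 at 2.41 and 25.4, against 2.05, 1.73 and 1.03 (adjusted p = 0.0631). Day 24 replicate 1 lay near day 14 levels for both carriers and replicate 2 far above them. Of the 4 genes that fell, the gluconeogenic enzyme Pck1 was at 3.84 and 24.9, against 129.9, 144 and 63.9 (log2 fold change -3.26 ± 0.63, adjusted p = 0.00337), and Fbp1 at 4.82 and 8.68, against 57.1, 68.0 and 27.7 (-2.70 ± 0.33, adjusted p = 1.22e-04). Pfkl, a phosphofructokinase of glycolysis, was at 4.82 and 4.62, against 7.84, 6.53 and 8.05 (-0.56 ± 0.10, adjusted p = 0.00162). The list had 10 higher calls without day 24 replicate 1, 2 without day 14 replicate 1 or 2, and only Sis without day 24 replicate 2, since Mgam then had an adjusted p of 0.0699. The 19 tested brush border peptidase and peptide uptake genes had 0 calls in either direction (median 0.71), and 13 higher calls without day 24 replicate 1. The peptide carrier Slc15a1, for example, was at 4.72 and 76.9, against 5.13, 5.20 and 2.75.

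Among 14 tested genes of arginine, citrulline and ornithine metabolism, 2 were higher and 5 lower (median -0.31). Arg2, the mitochondrial arginase that splits arginine, was at 16.7 and 68.9 scaled TPM, against 1.98, 1.49 and 2.88 (log2 fold change 3.52 ± 0.54, adjusted p = 7.35e-04). Ass1, which joins citrulline and aspartate on the way to arginine and by which suckling enterocytes are known to make arginine, was at 1.85 and 1.54, against 25.4, 33.8 and 10.6 (-3.03 ± 0.32, adjusted p = 3.63e-05). The 2 ages did not overlap for either gene. Aldh18a1, which starts proline and ornithine synthesis from glutamate, was at 30.5 and 29.2, against 78.2, 73.2 and 60.9 (-1.21 ± 0.15), and the ornithine aminotransferase Oat at 188 and 147, against 478, 446 and 409.7 (-1.41 ± 0.18). Asl fell too, with a log2 fold change of -0.71 ± 0.13, and Cps1, the first enzyme of citrulline synthesis, fell by 0.74, a call that was lost without day 24 replicate 2 (adjusted p = 0.207) or day 14 replicate 3. These 5 enzymes were higher at day 14 in every library, and both day 24 libraries were close to each other, unlike the mature enterocyte genes. The other rise, of the glutamyl transferase Ggt1, lost its call without any 1 library except day 24 replicate 1.

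Suckling enterocytes make ketone bodies from milk fat. Of 26 tested ketogenesis and fatty acid oxidation genes, 0 were higher and 9 lower (median -0.53). The thioesterase Acot1 was at 1.00 and 0.652, against 7.81, 7.92 and 5.18, and the thiolase Acaa2 at 35.9 and 43.1, against 155, 149 and 116 (log2 fold change -1.79 ± 0.17, adjusted p = 1.31e-05). The thiolase Acat1 fell by 1.5, the ketone body dehydrogenase Bdh1 by 0.83 and Cpt1a, the gate of fatty acid entry into mitochondria, by 0.69 on the log2 scale. The count of falls was 8 to 13 with 1 library left out, and 15 without size factors (median -0.98). Without day 24 replicate 1, 2 of the list's genes were also called higher.

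Of 23 tested fat absorption genes, 0 were higher and 3 lower (13.0%, against 7.31% of all tested genes), with a list median of -0.26. The 3 were the acyl-CoA synthetase Acsl3 at 6.05 and 4.56 scaled TPM, against 16.5, 21.1 and 12.4 (adjusted p = 5.60e-05), the lipid droplet coat Plin2 at 6.28 and 8.16, against 29.7, 34.1 and 17.9 (adjusted p = 2.87e-04), and Dgat2, which makes triglyceride, at 3.04 and 31.7, against 70.2, 89.3 and 27.7 (adjusted p = 0.0381). Acsl3 and Plin2 did not overlap between the ages. Dgat2 did overlap, and lost its call without day 24 replicate 1 or without day 14 replicate 1 or 2. The chylomicron apolipoprotein Apoa4 was at 79.8 and 1846, against 3351, 3640 and 1096 (adjusted p = 0.184). Its 2 day 24 libraries differed by more than the 2 ages did. Of the fat absorption genes, 5 were called higher without day 24 replicate 1, and without replicate 2, 6 were called lower.

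Cholesterol synthesis genes were higher at day 24: of 21 tested, 12 were called higher and 0 lower (median 0.65). Msmo1, a sterol demethylating oxidase, was at 5.13 and 7.19 scaled TPM at day 24, against 2.05, 1.52 and 1.88 at day 14 (log2 fold change 1.34 ± 0.18, adjusted p = 2.27e-04). The ages did not overlap. Fdft1 and Cyp51 had log2 fold changes of 0.83 ± 0.12 and 0.82 ± 0.13, and Hmgcs1, the synthase at the start of the pathway, 0.82 ± 0.17. These 3 calls were lost without size factors. The count was 9 or 10 without any 1 day 14 library, in fits that still took the spread from all groups. Fitted on the 5 libraries alone, 2 members were called higher. The count also rested on the size factors: without them 2 members were called (median 0.29).

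The promoter of Hmgcs1 (chr13:119690101-119690350, plus strand, GRCm38.p6) is shown because its gene is a known target of the sterol regulatory element binding proteins. The capitals mark the letters CACCCCAC, found 136 to 129 bases before the start.
Hmgcs1: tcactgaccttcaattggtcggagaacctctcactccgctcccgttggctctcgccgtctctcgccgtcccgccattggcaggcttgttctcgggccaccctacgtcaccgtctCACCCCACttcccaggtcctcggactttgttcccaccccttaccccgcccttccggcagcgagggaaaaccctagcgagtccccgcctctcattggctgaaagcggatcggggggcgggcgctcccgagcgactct
Among all windows 2.58% held these letters on either strand, as did 1 of the 6 windows found for the 12 cholesterol genes called higher.

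Bile acid handling split. Fabp6, which binds bile acids inside ileal enterocytes, was at 36.7 and 198 scaled TPM, against 5.91, 3.06 and 0.353 (log2 fold change 4.69 ± 0.93, adjusted p = 0.00407). Fgf15, the hormone by which the ileum signals bile acid uptake to the liver, was at 0.131 and 0.597, against 8.41, 7.65 and 2.91 (-2.35 ± 0.33, adjusted p = 3.73e-04). Fabp6 was thus higher and Fgf15 lower at day 24 in both libraries, although both genes are known targets of the bile acid receptor. That receptor, Nr1h4, was at 8.65 and 10.5, against 20.2, 23.3 and 11.4 (adjusted p = 0.021), and its target Nr0b2 at 0.177 and 0.860, against 3.30, 4.99 and 1.79 (adjusted p = 0.008). The call of Nr1h4 was lost without any 1 of the libraries except day 14 replicate 3 (largest adjusted p = 0.0782), and that of Fabp6 without day 24 replicate 2. Over the 7 tested genes of the list, 1 was higher and 3 lower (median 0.18).

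Genes that answer to the microbiota or kill microbes were higher: of 18 tested, 12 were called higher and 0 lower (median 1.69), and the count was 9 to 13 with 1 library left out. Beside the lectins, Duox2, an epithelial hydrogen peroxide source, had a log2 fold change of 3.74 ± 0.20 (adjusted p = 9.67e-08). Its maturation factor Duoxa2 was at 4.32 and 5.39 scaled TPM, against 0.340, 0.0461 and 0.0708 (2.35 ± 0.26, adjusted p = 6.33e-05). The nitric oxide synthase Nos2 was at 2.97 and 16.7, against 0.0273, 0.0499 and 0.0895 (adjusted p = 0.00102). All 3 were close to 0 in every day 14 library and so passed the filter only through day 24. The list holds 30 genes, of which 18 passed the filter.

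Pigr, which carries IgA across the epithelium into the lumen, was at 423 and 647 scaled TPM, against 179, 132 and 224 (log2 fold change 1.58 ± 0.23, adjusted p = 5.48e-04). Fut2, which adds fucose to surface glycans, was at 2.39 and 4.23, against 0.244, 0.230 and 0.156 (1.80 ± 0.25, adjusted p = 3.15e-04). The 2 ages did not overlap for either. Relative to Vil1, Reg3b was at 15.3 and 10.8 at day 24, against 0.0198, 0.0271 and 0.0180 at day 14.

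Of 8 MHC class II genes, which display peptides to CD4 T cells, 4 passed the filter, and all 4 were higher (median 2.53). H2-DMa was below 1 scaled TPM in every day 14 library and passed the filter only through day 24. The invariant chain Cd74 was at 28.7 and 30.3 scaled TPM, against 1.24, 1.67 and 1.24 (log2 fold change 3.68 ± 0.50, adjusted p = 2.70e-04). The class II chain H2-Ab1 was at 10.2 and 19.3, against 0.957, 1.17 and 1.55 (2.77 ± 0.51), and H2-Eb1 at 6.55 and 9.76, against 0.610, 1.05 and 0.905 (2.29 ± 0.43). Every day 24 library was above every day 14 library for each of the 4. The peptide editor H2-DMa (log2 fold change 1.11) lost its call without day 24 replicate 2 (adjusted p = 0.0873). Of the leukocyte lists, the 15 T cell genes summed to 5.02 and 19.8 scaled TPM at day 24, against 2.04 to 4.33 at day 14. The 10 B and plasma cell genes summed to 0.607 and 2.47, against 0.341 to 0.508, with none of them at 0 in all 5 libraries. The 14 macrophage and myeloid genes, 3 of which were at 0 in all 5 libraries, summed to 5.05 and 4.54, against 3.47 to 8.88; of its tested genes Itgam was called higher, and Csf1r and Cd68 lower. Their part in the class II result was not tested.

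The promoter of H2-Eb1 (chr17:34305617-34305866, plus strand, GRCm38.p6) is shown because class II genes are known to share a promoter module that ends in a Y box. The capitals mark the Y box letters CTGATTGG, found 62 to 55 bases before the start.
H2-Eb1: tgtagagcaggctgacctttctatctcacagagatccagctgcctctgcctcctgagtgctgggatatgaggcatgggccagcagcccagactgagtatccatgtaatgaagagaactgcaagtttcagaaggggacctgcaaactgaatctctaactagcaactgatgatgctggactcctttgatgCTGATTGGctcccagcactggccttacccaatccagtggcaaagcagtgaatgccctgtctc
The letters were in 3.83% of all windows on either strand, and in 1 of the 3 windows found for 2 of the 4 class II genes.

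Of 13 tested MHC class I and peptide loading genes, 5 were higher and 0 lower (median 1.03), but 1 without size factors (median 0.62). The immunoproteasome subunit Psmb10 was at 33.6 and 44.4 scaled TPM, against 20.0, 16.4 and 20.6 (log2 fold change 1.00 ± 0.14, adjusted p = 3.77e-04). Its partner Psmb9 was at 3.11 and 6.03, against 1.99, 1.42 and 1.49 (1.03 ± 0.19). Without size factors their adjusted p-values were 0.129 for Psmb10 and 0.0508 for Psmb9, and both calls were lost. Of 20 interferon-stimulated genes, 8 were higher and 1, Ifit2, lower (median 0.87). Usp18, which removes the ubiquitin-like protein ISG15, was at 2.55 and 13.9, against 0.755, 0.631 and 0.303 (2.23 ± 0.44, adjusted p = 0.00395), and Ifit1bl1 at 6.66 and 58.7, against 0.979, 0.935 and 0.397 (adjusted p = 0.00112). Day 24 replicate 2 was several times above replicate 1 for these 2 genes, and members of the Oas and Ifit families share near-identical stretches. The fit without day 24 replicate 1 called 13 class I and 15 interferon genes higher, against 2 and 2 without replicate 2 and 3 and 4 without day 14 replicate 3. The 9 butyrophilin-like and lymphocyte ligand genes had 0 calls (median 0.31), and 5 higher without day 24 replicate 1.

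**Figure D2:**
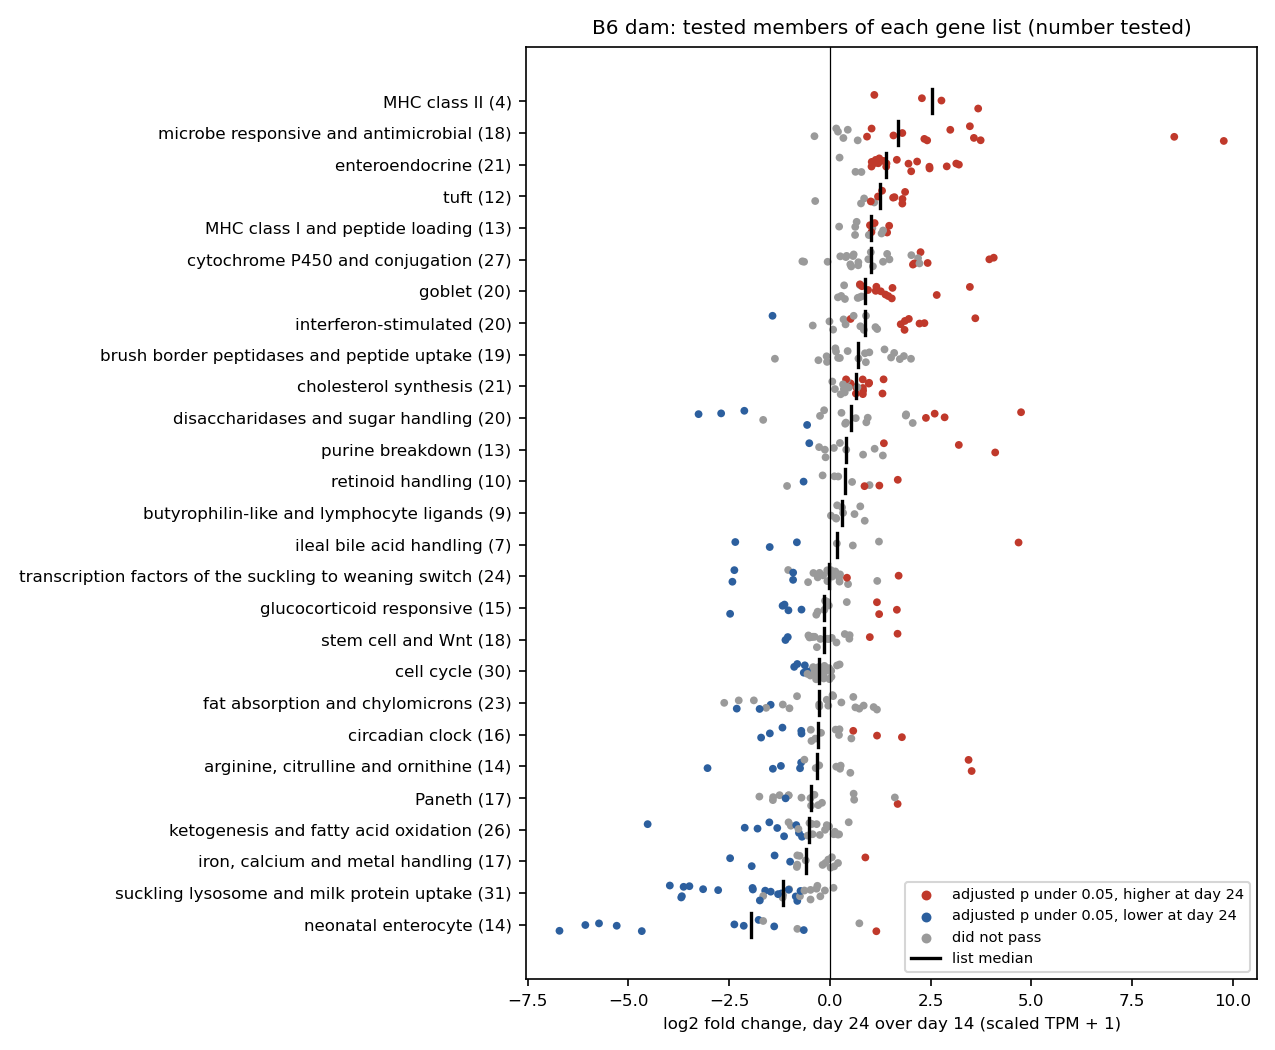
Log2 fold change, day 24 over day 14 with the B6 dam, of each tested member of 27 gene lists (number tested in brackets), ordered by list median; red points were called higher, blue lower, grey points did not pass, and the black bar is the median. The 4 MHC class II genes lie furthest to the right by median (2.53) and the neonatal enterocyte list furthest to the left (-1.95), against a median of 0.02 over all tested genes.

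Genes of 3 secretory lineages were higher at day 24. Enteroendocrine genes led: of 21 tested, 18 were higher and 0 lower (median 1.40), and 13 to 16 with 1 library left out. Gcg (chromosome 2, 62474530 to 62483650), the precursor of the glucagon-like peptides, was at 78.8 and 45.9 scaled TPM at day 24, against 5.16, 5.70 and 6.08 at day 14 (log2 fold change 3.20 ± 0.41, adjusted p = 1.75e-04). The granule protein Chgb was at 292 and 228, against 57.0, 62.5 and 50.8 (2.17 ± 0.35, adjusted p = 9.24e-04). Pcsk1, which cuts prohormones, was at 4.04 and 3.44, against 0.709, 0.812 and 0.855 (1.40 ± 0.21), and the granin Scg2 at 8.85 and 5.46, against 0.120, 0.467 and 0.807 (2.47 ± 0.37). The ages did not overlap for any of the 4. Scg2 was below 1 scaled TPM in every day 14 library, passed the filter only through day 24, and so could be counted only as a rise.

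Hormones of several endocrine subtypes rose. The incretin Gip was at 373 and 307 scaled TPM, against 45.1, 34.5 and 33.9, ghrelin (Ghrl) at 50.4 and 32.7, against 2.85, 9.18 and 3.40, and cholecystokinin (Cck) at 34.6 and 27.2, against 3.69, 2.98 and 8.86. Their log2 fold changes were 3.14 ± 0.55, 2.90 ± 0.49 and 2.48 ± 0.44. Peptide YY (Pyy) was at 10.4 and 6.84, against 2.96, 5.0 and 5.99 (adjusted p = 0.175), and neurotensin (Nts) at 22.0 and 27.8, against 10.4, 37.7 and 22.3 (adjusted p = 0.794); neither passed the test. The endocrine transcription factors Neurog3, Neurod1, Isl1 and Fev were also called higher, but none of the 4 without day 24 replicate 1 or without size factors. The summed level of the list was 1197 and 976 scaled TPM, against 191, 285 and 206. Without size factors 9 of the 21 were called higher and 0 lower.

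Goblet cell genes followed, with 12 of 20 higher and 0 lower (median 0.87). Agr2, a disulfide isomerase needed to make mucin, was at 212 and 216 scaled TPM, against 40.7, 27.8 and 32.1 (log2 fold change 2.65 ± 0.30, adjusted p = 7.00e-05). Zg16, a lectin of the mucus that binds Gram-positive bacteria, was at 92.6 and 221, against 15.3, 6.77 and 16.2 (3.48 ± 0.55), and the trefoil peptide Tff3 at 319.6 and 389, against 148, 101 and 117 (1.54 ± 0.27). The mucin Muc2 itself was at 97.1 and 170.4, against 58.1, 38.3 and 52.1 (adjusted p = 0.00775, 0.112 without day 24 replicate 2 and 0.0928 without size factors). The goblet count was 4 without day 24 replicate 2, 6 without day 14 replicate 2, and 3 without size factors.

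Tuft cell genes had 8 of 12 higher and 0 lower (median 1.25), the 12 being those of 18 listed genes that passed the filter. The phospholipase Plcg2 was at 7.96 and 10.8 scaled TPM, against 1.96, 1.74 and 2.16 (log2 fold change 1.80 ± 0.23, adjusted p = 1.97e-04), and the taste channel Trpm5 at 3.04 and 3.62, against 0.518, 0.505 and 0.344 (1.57 ± 0.28). Trpm5 was below 1 scaled TPM in every day 14 library, passed the filter only through day 24, and so could be counted only as a rise. Pou2f3, the tuft cell transcription factor, was called higher as well, but not without size factors or without any 1 of the 5 libraries. The tuft count fell to 4 without day 24 replicate 2 and to 5 without size factors. Unlike the enterocyte genes, Agr2, Plcg2 and Trpm5 were close between the 2 day 24 libraries.

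Of 17 tested Paneth cell genes, 1 was higher (5.88%) and 1 lower (5.88%), with a list median of -0.48. Over all tested genes 9.59% were higher and 7.31% lower. Mmp7, the protease that activates defensins, was at 23.4 and 21.6 scaled TPM, against 8.12, 5.01 and 6.12 (log2 fold change 1.68 ± 0.36, adjusted p = 0.00696). The pentraxin Mptx1 was at 0.453 and 0.0761, against 1.88, 0.735 and 2.82 (adjusted p = 0.0458, the call lost without day 24 replicate 2 or without day 14 replicate 1 or 3). The 8 tested defensins, close copies of each other, did not pass.

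Stem cell and Wnt genes had 2 of 18 higher (11.1%) and 2 lower (11.1%), against 9.59% and 7.31% of all tested genes. Clca3b and Cd44 were higher, with log2 fold changes of 1.68 ± 0.24 and 0.99 ± 0.20. Lgr5, the stem cell receptor, was at 3.04 and 1.39 scaled TPM, against 4.62, 4.52 and 7.47 (log2 fold change -1.04 ± 0.21, adjusted p = 0.00505, and 0.086 without day 24 replicate 2). Rnf43, which removes Wnt receptors, was at 9.75 and 6.82, against 17.9, 16.5 and 22.0 (-1.10 ± 0.19). Of 30 cell cycle genes, 0 were higher and 6 lower (median -0.26). Top2a, which untangles DNA, was at 18.8 and 13.8, against 30.1, 25.0 and 32.1 (-0.81 ± 0.15, adjusted p = 0.00226). The cell cycle count was 12 without day 24 replicate 1 and 1 without replicate 2, and 2 without day 14 replicate 1. Without day 24 replicate 1, 6 stem cell genes were lower, and without replicate 2, 1 was. Without size factors 1 stem cell gene was higher and 4 lower.

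**Figure D3:**
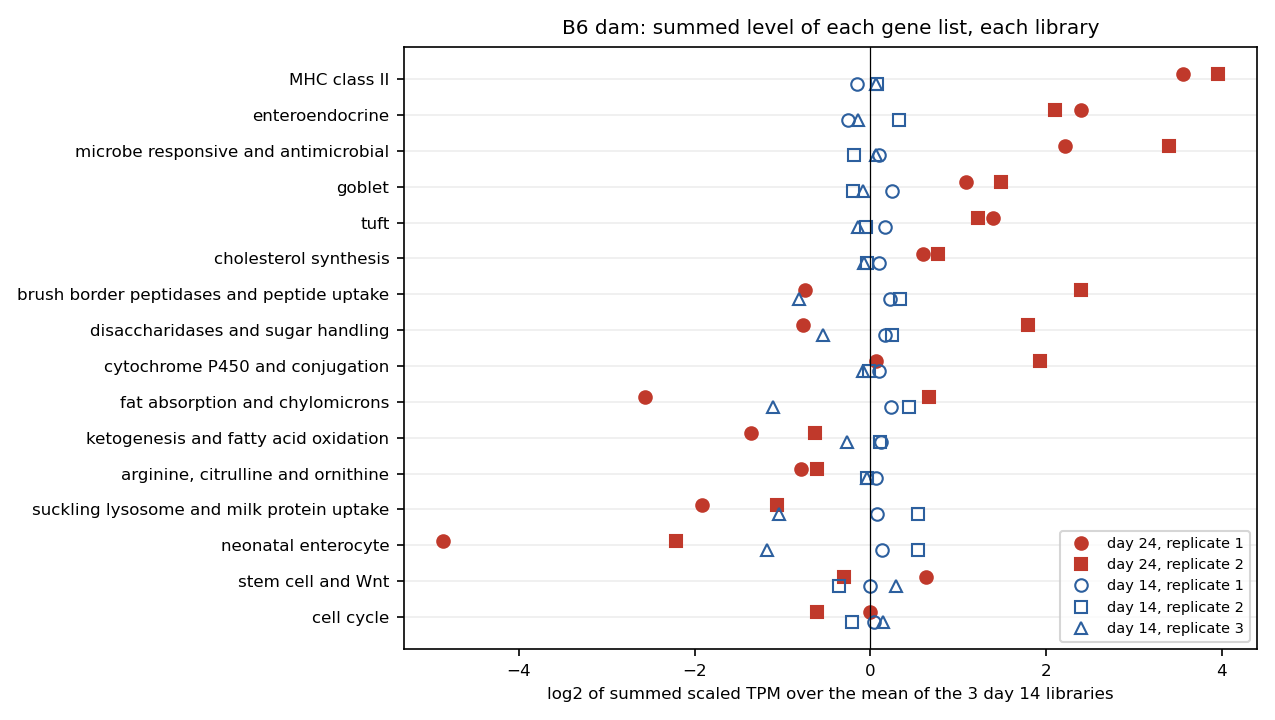
Summed scaled TPM of 16 gene lists in each library of the B6 dam, as log2 over the mean of the 3 day 14 libraries; filled red symbols are day 24 and open blue symbols day 14. The MHC class II, enteroendocrine, microbe responsive, goblet, tuft and cholesterol lists have both day 24 libraries above all day 14 libraries, while for fat absorption (1160 and 10891 scaled TPM, against 3191 to 9331) the 2 day 24 libraries lie on opposite sides. For peptidases (316 and 2781, against 300 to 668) replicate 1 lies inside the day 14 range and replicate 2 above it.

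The change of endocrine genes between the 2 ages was set against the same change with the IgA-null dam, with 3 libraries at each age. Each of the 4 groups carries a date of its own in the sample descriptions, so the difference between dams and the date cannot be told apart. The difference of the 2 changes was called for 21 of the 12496 genes (0.168%). Gcg was at 78.8 and 45.9 scaled TPM at day 24 and 5.16, 5.70 and 6.08 at day 14 with the B6 dam, against 17.7, 26.6 and 19.4 at day 24 and 24.23, 26.1 and 24.41 at day 14 for the IgA-null dam. The difference of the changes was 3.45 ± 0.55 on the log2 scale (SE, adjusted p = 0.0264). Secretin (Sct) was at 39.2 and 32.3 at day 24 and 4.76, 10.5 and 11.8 at day 14 with the B6 dam, against 13.1, 14.25 and 12.4 at day 24 and 40.1, 34.9 and 33.9 at day 14 for the IgA-null dam (3.34 ± 0.43, adjusted p = 0.0154). Both genes were higher at day 24 among pups of the B6 dam. For the IgA-null dam, Sct was higher at day 14 in every library, and Gcg overlapped between the ages. Pyy and Nts, which did not pass within the B6 dam, had differences of 3.90 ± 0.50 and 4.64 ± 0.70, and at day 14 with the IgA-null dam Pyy was at 27.1, 22.4 and 20.0 scaled TPM and Nts at 129, 113 and 154. The count of 21 was fragile: it was 0 without IgA-null day 14 replicate 1 or 3, 135 without IgA-null day 24 replicate 1, 122 without B6 day 14 replicate 3, and 1 to 6 without any 1 of the others except B6 day 24 replicate 2 (19).

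**Figure D4:**
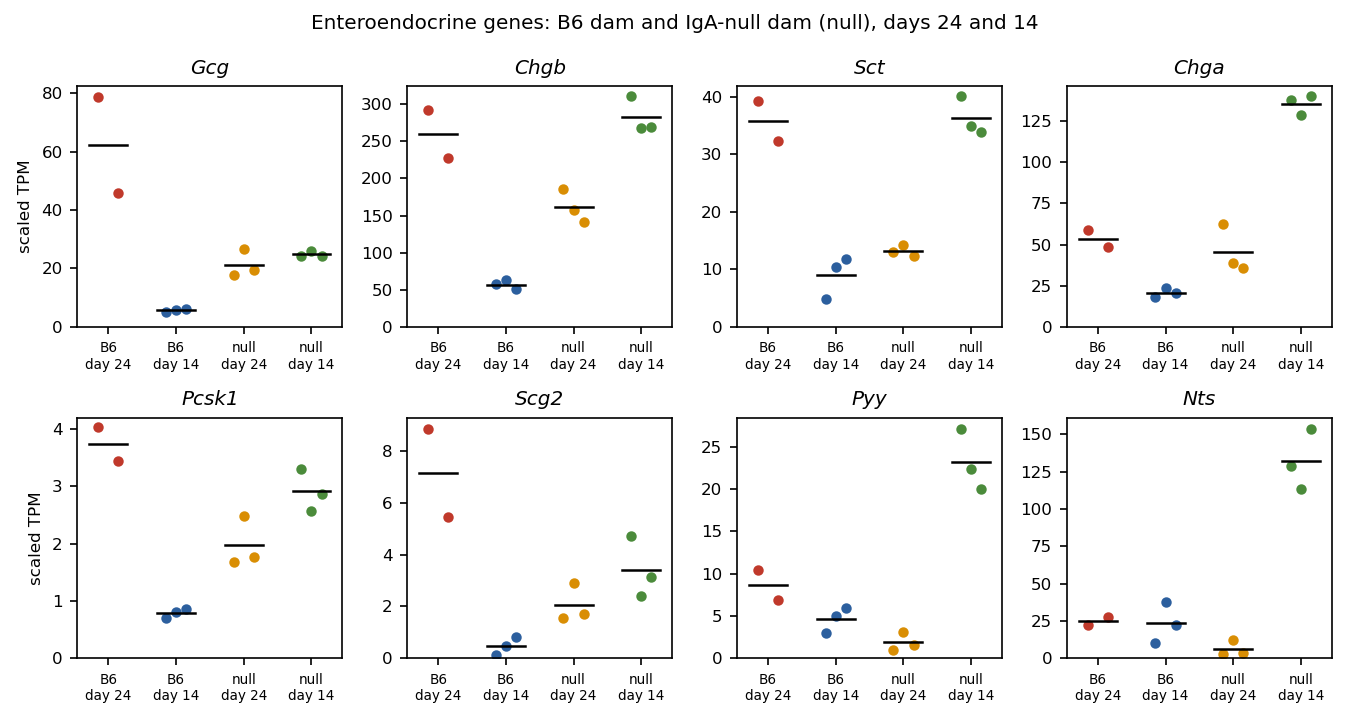
Scaled TPM of 8 enteroendocrine genes in each library at days 24 and 14, for pups of the B6 dam and of the IgA-null dam (null); points are libraries and bars are group means. With the B6 dam Gcg, Chgb, Sct, Chga, Pcsk1 and Scg2 are higher at day 24, whereas for the IgA-null dam every one of the 8 has the higher mean at day 14.

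Of 24 tested transcription factors of the suckling to weaning switch, 2 were higher (8.33%) and 4 lower (16.7%), with a median of -0.01. Over all tested genes 9.59% were higher and 7.31% lower. Prdm1 was at 0.209 and 1.08 scaled TPM at day 24, against 8.14, 9.78 and 4.57 at day 14 (log2 fold change -2.37 ± 0.26, adjusted p = 5.75e-05). Arid3a was at 0.787 and 1.34, against 10.8, 12.0 and 7.52 (-2.42 ± 0.23, adjusted p = 1.57e-05). The 2 ages were clearly separate for both. The thyroid hormone receptor Thrb fell by 0.91 on the log2 scale. Klf4, a factor of differentiated and goblet cells, was at 16.9 and 56.6, against 9.50, 10.6 and 6.79 (adjusted p = 0.00765, and 0.107 without day 24 replicate 2). The other rise, of Smad4, lost its call without any 1 library except day 24 replicate 1, with which left out 4 genes were higher, and without size factors (adjusted p = 0.969). The list then had 1 higher and 6 lower calls.

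Glucocorticoid responsive genes went both ways, with 3 of 15 higher (20%) and 5 lower (33.3%). Cebpd was at 3.94 and 3.38 scaled TPM, against 0.547, 0.333 and 0.527 (log2 fold change 1.67 ± 0.18, adjusted p = 5.96e-05). Its relative Cebpb was at 5.58 and 6.75, against 16.6, 16.5 and 12.5 (-1.17 ± 0.21, adjusted p = 0.0022). Fkbp5, a chaperone of the glucocorticoid receptor, was at 4.11 and 2.26, against 0.899, 0.692 and 0.851 (1.17 ± 0.16). The list had 2 lower calls without day 24 replicate 2, and 3 without day 14 replicate 3.

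Of 16 circadian clock genes, 3 were higher (18.75%) and 5 lower (31.25%). Per2, a repressor of the clock, was at 1.43 and 2.91, against 9.49, 10.5 and 7.44 (-1.70 ± 0.18, adjusted p = 3.59e-05), and the activator Arntl at 3.28 and 3.21, against 2.00, 1.58 and 1.94 (0.58 ± 0.12). Without size factors Arntl lost its call (adjusted p = 0.443), and 2 clock genes were higher and 7 lower. The hour of collection was not given in the sources used here. The clock counts were 6 higher without day 24 replicate 1, and 3 lower without day 24 replicate 1 or without day 14 replicate 1 or 2. Immediate early genes, which rise on tissue digestion, had 0 of 14 higher and 4 lower (28.6%), and heat shock genes 3 of 12 higher (25%) and 0 lower. These counts were 2 lower and 1 higher without day 24 replicate 2, and without size factors 1 heat shock gene was higher.

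Xenobiotic and conjugating enzymes had 6 of 27 higher and 0 lower (median 1.02), with 18 without day 24 replicate 1, 0 without replicate 2, and 2 without day 14 replicate 1 or 2. The purine breakdown list had 3 of 13 higher (23.1%) and 1 lower (7.69%). Among the 3 was Upp1, whose substrate uridine is a pyrimidine and not a purine. Upp1 was at 9.63 and 48.7 scaled TPM, against 0.184, 0.374 and 0.460, and adenosine deaminase (Ada) at 9.23 and 110.0, against 2.65, 2.05 and 3.41 (adjusted p = 0.0111, and 0.164 without day 24 replicate 2). Retinoid handling had 3 of 10 higher (30%) and 1 lower (10%), and metal handling 1 of 17 higher (5.88%) and 4 lower (23.5%). The iron exporter Slc40a1 was at 1.13 and 5.73, against 14.7, 21.6 and 7.62 (log2 fold change -1.94 ± 0.47, adjusted p = 0.0132), and the vitamin D receptor Vdr at 29.2 and 35.2, against 16.0, 14 and 21.5 (0.88 ± 0.16). Without size factors Vdr had an adjusted p of 0.25, metal handling had 0 higher and 7 lower calls, and retinoid handling 1 higher and 2 lower. For these 3 lists, leaving out 1 library gave up to 7, 5 and 3 higher calls, each of them without day 24 replicate 1, and as few as 1, 0 and 1, without replicate 2. Metal handling had 2 lower calls without day 24 replicate 1. Slc40a1 lost its call without day 24 replicate 1 (adjusted p = 0.105) or day 14 replicate 2.

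Nuclear genes of the respiratory chain had 18 of 40 higher and 0 lower (median 0.58), but 0 without size factors, 28 without day 24 replicate 1, 3 without replicate 2 and 10 without day 14 replicate 3. The 13 mitochondrially encoded genes had 0 calls. Segment markers were mixed: 1 of 12 proximal genes was higher (8.33%) and 1 lower (8.33%), near the 9.59% and 7.31% of all tested genes. Of 11 distal genes, 3 were higher (27.3%) and 2 lower (18.2%). These counts rested on single libraries. The proximal list had 2 higher and 1 lower without day 24 replicate 1, 0 and 3 without replicate 2, 1 and 2 without day 14 replicate 3, and 0 calls without day 14 replicate 2, and it had 1 higher and 4 lower without size factors. The distal list had 1 higher without day 24 replicate 2, and 1 lower without that library or without day 14 replicate 1 or 3. The proximal list summed to 641 and 8095 scaled TPM at day 24, against 2547 to 7871 at day 14, and the distal list to 734 and 2189, against 447 to 677. The part of the sampled segment in the enterocyte results was not tested.

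The B and plasma cell, endothelial and erythroid lists had no gene past the filter. Of the T cell list 3 of 15 genes were tested and 1 (Trac) was lower, a call lost without day 24 replicate 1 or without day 14 replicate 1 or 2, with sums of 5.02 and 19.8 scaled TPM, against 2.04 to 4.33. Of the myeloid list 3 were tested: Itgam was at 2.21 and 1.602 scaled TPM, against 0.283, 0.207 and 0.354 (adjusted p = 6.98e-05), while Csf1r was at 0.0329 and 0.112, against 3.43, 6.28 and 1.18 (adjusted p = 0.00134), and Cd68 was lower too. Of the fibroblast list, Vim alone was tested, at 5.11 and 3.53, against 0.648, 0.820 and 0.452 (adjusted p = 0.00132). The pancreatic protease gene Ctrb1 was at 0.183 and 0.0693, against 8.23, 9.19 and 1.86 (adjusted p = 8.01e-04), with 8 of 12 pancreas genes at 0 in all 5 libraries. Both neuron and glia genes that were tested, Ret and S100b, were called lower. Ret overlapped between the ages and kept its call only in the fit without day 14 replicate 3.

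In the 3 day 42 libraries of the same dam group, Reg3b averaged 1040 ± 389 scaled TPM and Sis 78.4 ± 86.9 (SD, n = 3). Meltf averaged 0.0136 ± 0.0235 and Fcgrt 9.94 ± 4.06, so these suckling genes were at or near their day 24 levels. Cd74 averaged 102 ± 13.2, with all of its libraries above the day 24 values of 28.7 and 30.3. Gcg averaged 69.8 ± 40.3. These values are descriptions, with no test between days 42 and 24.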

How the data were processed

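The authors deposited 1 table of TPM for 53278 gene symbols and 17 libraries. Libraries came from SMART-seq v4 amplification and Nextera XT tagmentation, per the labels' protocols. The submitters' processing notes name mm10, Bowtie2, Subread and DESeq2, without versions or settings. TPM hides depth, so each value was multiplied by its exon length in GENCODE M21, which gave whole reads for 93.6% of positive values (within 0.01 reads, or 1e-04 of the value). Depth is the sum of those reads, and weakly covered genes are the least precise.

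Each library was divided by a median-of-ratios size factor (0.675 to 1.21 in the 5 libraries). The fit, limma 3.58.1 (R 4.3.3) with a trended prior on log2(scaled TPM + 1), covered all 17 libraries as 6 groups, with Benjamini-Hochberg adjustment over the 12496 genes. A second contrast tested the difference of the change between dams. The procedure was tested on simulated data, and a p that misses the threshold does not show that a gene did not differ. Python 3.11.15, numpy 2.4.6 and pandas 2.3.3 made the tables.

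Ranked rises and falls are the 15 called genes with the largest fold change each way, no overlap between the ages and a mean of 10 or more scaled TPM at the higher age. Up to 4 genes per list with the smallest p and the 10 smallest p of the difference between dams were also named. The remaining named genes, such as Lct, Gip, Ghrl, Cck, Cubn, Amn, Apoa4, Slc5a1, Muc2, Nos2, Fut2 and Pigr, and the ratio to Vil1, were chosen after their values were seen. The members and gene lists (41) were chosen with earlier results of these data known, and lists are described by counts and medians, with no test. Alternatives were other scalings, pseudocounts, filters and fits, and leaving out each library. Promoter windows came from RefSeq (GRCm38.p6), matched by symbol. A few genes that the naming rule selects are not reported here.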

Additional observations from a re-analysis of the deposited data

Results flagged for a closer look

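The change between days 24 and 14 differed between the dams for 21 genes by limma's test of the difference itself, and 17 of them are named here, with the B6 dam's log2 change minus the IgA-null dam's. The larger group were enteroendocrine genes, whose change was higher with the B6 dam: Nts 4.64, Gip 4.11, Pyy 3.90, Gcg 3.45, Sct 3.34, Sst 3.16, Scg2 2.99, Chgb 2.98, Chga 2.93, Tph1 2.10 and Pcsk1 1.80. Among them Nts and Pyy did not pass the test within the B6 dam, and their difference stood beside a day 14 level with the IgA-null dam of 113 to 154 scaled TPM for Nts and 20.0 to 27.1 for Pyy. The fetal gene Afp differed by 2.37 and the glucocorticoid responsive Fkbp5 by 1.34.

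Lbh differed by -2.03: it was at 5.98 and 3.87 scaled TPM at day 24 and 25.2, 32.1 and 15.8 at day 14 with the B6 dam, against 9.66, 12.6 and 9.71, and 11.6, 9.16 and 12.1, with the IgA-null dam. St3gal3, a sialyltransferase, differed by -1.31 and every day 24 library of either dam was below that dam's day 14 libraries. The predicted genes Gm10800 and Gm10801 differed by -4.15 and -3.67. For the IgA-null dam they were higher at day 24 (54.0 to 102 scaled TPM of Gm10800, against 4.67 to 7.28 at day 14) and did not pass with the B6 dam. None of these differences was called without IgA-null day 14 replicate 1 or 3, when the count was 0.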

How the results depend on the processing

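The count of 2111 called genes (1198 higher, 913 lower) and the 21 differences between dams were refitted under each alternative. Without size factors 1403 genes were called, 259 of them higher, and 5182 differed between dams. After removing mitochondrial genes and the 50 highest, 668 were higher, 1285 lower and 13 differed. A pseudocount of 5 gave 13 differences, no filter 45, and limma-voom on recovered reads 11. With a TPM of at least 5, 1245 genes were called, 798 higher and 447 lower. Fitted on the compared groups alone, 209 were called, 116 higher and 93 lower. Leaving out 1 library gave 960 to 3584 calls, 418 to 2249 higher and 542 to 1335 lower, and 0 to 135 differences, with the extremes of calls set by day 24 replicates 1 and 2. In every fit without 1 of the 5 libraries, 674 genes were called.

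With the replicate number as a block 1575 genes were called, and 0 differed between dams. Deviations of same-numbered libraries correlated at -0.188 and 0.313. With 2 day 24 libraries, their deviations from the group mean mirror each other, so these values cannot show whether the numbers pair the samples. Of the 135 named genes, 73 lost their call on the compared groups alone and 29 without day 24 replicate 2, and no named gene changed direction past the threshold. The causes were not tested. With 2 libraries at day 24 that differed in mature enterocyte genes, modest changes of those genes cannot be resolved.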
